A study of Arabidopsis thaliana with 6 samples.

Results

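Glutamine amidotransferases are enzymes that take the amide nitrogen of glutamine and place it on another molecule. The 10 Arabidopsis thaliana genes described here encode such enzymes or subunits of them, and were chosen by locus from the 33602 genes of the deposited table. They comprise 4 genes of purine synthesis (ASE1, ASE2, PUR4 and the GMP synthase gene AT1G63660), the CTP synthase genes AT1G30820 and AT2G34890, HISN4 of histidine synthesis, ASA1 and ASB1 of tryptophan synthesis, and GFAT of amino sugar synthesis. RNA came from whole Columbia (Col) seedlings, 12 days old, raised on agar with 0.5% sucrose and a single source of nitrogen. Gln seedlings received 5 mM glutamine (3 libraries), and NH4NO3 seedlings received 5 mM NH4NO3 (3 libraries). Gln seedlings also lacked nitrate and ammonium, and the effects of that lack and of Gln cannot be told apart. Whether the replicates are independent cultures is not stated in the labels, so each p-value reflects only a spread among samples that may be technical.

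The amide group is released by a glutaminase domain and passed within the enzyme to the acceptor, and a cysteine of that domain makes the attack on glutamine. Known glutaminase domains fall into a class I, with the cysteine inside the protein, and a class II, with the cysteine at the start of the mature protein. The acceptors are early and late intermediates of purines, UTP for CTP synthesis, an intermediate of histidine, chorismate for tryptophan, and fructose 6-phosphate for UDP-N-acetylglucosamine. In plants these are steps at which nitrogen from glutamine leaves the amino acid pool for nucleotides, aromatic and heterocyclic amino acids and cell surface sugars. Tryptophan is also the precursor of indole glucosinolates, which are defence compounds of the crucifers.

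The coding sequences show which members carry the cysteine themselves. In the RefSeq annotation of TAIR10.1, the longest coding sequence of 6 members encodes the class I pattern of glycine, any residue, cysteine, any residue, glycine, any residue and glutamine, which 0.186% of 27444 coding genes contain. In 3 members it encodes a pattern searched for class II, of methionine or glutamate, cysteine, glycine, isoleucine or valine, valine or phenylalanine, and glycine or alanine, which 0.0219% of coding genes contain. The alternatives in this second pattern are those found in ASE1, ASE2 and GFAT themselves. Its match and its share therefore do not test their class, and it may miss other class II enzymes. ASA1, whose protein binds chorismate and works with the beta subunit, holds neither pattern, and ASB1 provides the glutaminase of that enzyme. The stretches around the cysteine are printed because they show the bases that each pattern matched and how near some copies are to each other. They read 5′ to 3′ on the coding strand, with the cysteine codon in capitals.
ASE2 (class II, codon 87, chr4:16576304-16576333, minus strand): cctcgggaagagTGTggagttgtcggaatc
ASE1 (class II, codon 91, chr2:7181837-7181866, minus strand): cctcgagaagagTGCggtgtcgttggaatc
GFAT (class II, codon 2, chr3:8700951-8700971, minus strand): atgTGTggaatcttcgcgtat
AT1G30820 (class I, codon 398, chr1:10946278-10946307, minus strand): ttcctcggtattTGTcttggaatgcagatt
AT1G63660 (class I, codon 91, chr1:23606793-23606822, minus strand): gttttggggattTGCtatggtttgcaattg
ASB1 (class I, codon 165, chr1:8838081-8838110, minus strand): ttatttggagtaTGTatgggtttgcagtgt
The 30 bases of ASB1 are also found, letter for letter, in 5 further loci (6 in all), namely AT5G57890 on chromosome 5 and AT1G24807, AT1G24909, AT1G25083 and AT1G25155 near ASB1 on chromosome 1. The ASB1 coding sequence was 95.3% identical to that of AT5G57890 over 822 aligned bases, whereas ASA1 and ASA2 were 67.7% identical and ASE2 and ASE1 84.3% identical.

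The table gives RPKM, read numbers scaled by the authors to gene length and library size. It implies 30269358 to 35421767 reads in genes for Gln and 28654470 to 31980696 for NH4NO3. NH4NO3 replicate 2 stood apart in that 44.9% of genes with 1 to 100 reads had an even read number, against 57.8% to 60.9% in the other 5 libraries. Transcripts of the shoot and root were present in every library, as for whole seedlings, but not in equal amounts. Of 10 shoot markers, 8 were lower and none higher in Gln, and their summed level was 9019 to 10349 RPKM in Gln against 11228 to 12826 RPKM in NH4NO3, most of it from RBCS1A, which was not called, at -0.19 on the log2 scale, but was called higher, at 0.21, after quantile normalization (limma adjusted p = 0.00871). Of 12 root markers, 9 were higher and none lower, with a summed level of 268 to 356 RPKM in Gln against 171 to 210.4 RPKM in NH4NO3, and no marker of either list was at 0. Their part in the results on the amidotransferase genes was not tested. In whole seedlings, fewer cells of a type and less RNA per cell cannot be told apart.

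Seedlings on Gln had higher transcript levels of both anthranilate synthase subunits and of a CTP synthase, and lower levels of the purine enzymes ASE2, PUR4 and GMP synthase. Of the 10 members, 9 had a mean of at least 1 RPKM and were tested with limma on log2(RPKM + 1), with Benjamini-Hochberg adjustment over all 19284 genes tested. At an adjusted p under 0.05, 3 members were higher and 3 lower in Gln, and 3 were not called. Over all genes tested, 41.2% were called, 21.4% higher and 19.8% lower, and with 9 genes nothing particular to the set is read from these counts. The median log2 fold change was 0.10 over the 9 members and -0.02 over all genes tested. Leaving out NH4NO3 replicate 2 gave 3 higher and 2 lower members. Leaving out NH4NO3 replicate 1 gave 4 higher and 1 lower, and leaving out Gln replicate 2 gave 3 higher and 1 lower.

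**Figure D1:**
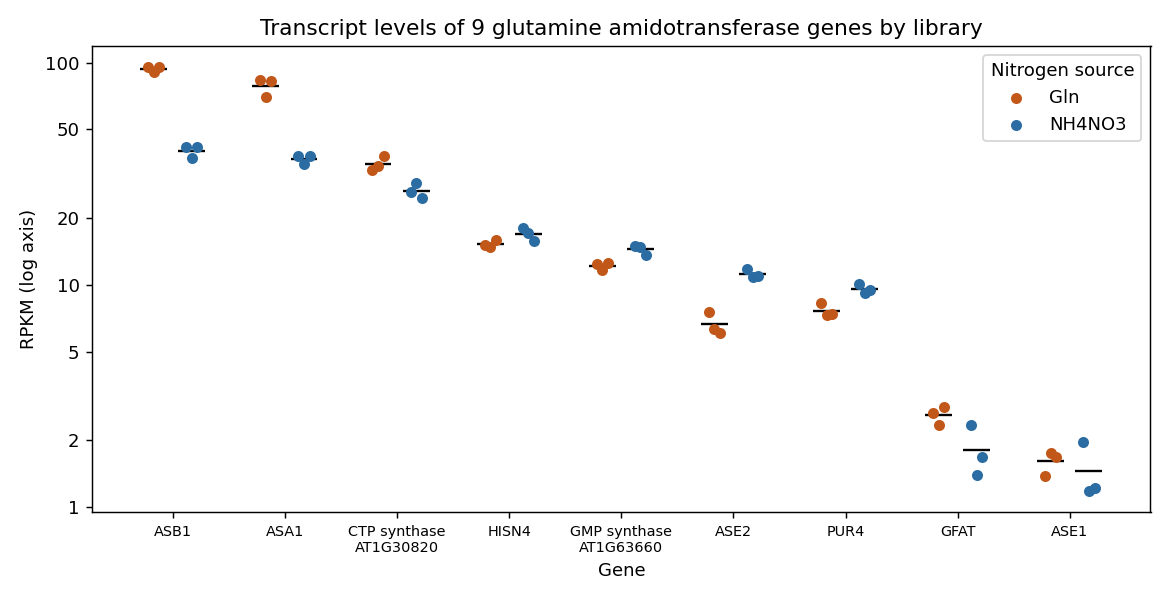
RPKM of the 9 tested amidotransferase genes in each library, on a log axis, for Gln (left of each gene) and NH4NO3 (right). Points are libraries and lines are group means (n = 3 each). ASB1, at 91.0 to 95.3 RPKM in Gln against 37.1 to 41.8 RPKM in NH4NO3, shows the widest separation, and ASE2 lies below its NH4NO3 values.

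Anthranilate synthase converts chorismate and glutamine to anthranilate, the entry to tryptophan synthesis. Its beta subunit gene ASB1 (AT1G25220, chromosome 1, 8836835 to 8839609, minus strand) had 95.2, 91.0 and 95.3 RPKM in Gln replicates 1 to 3, against 41.7, 37.1 and 41.8 RPKM in NH4NO3 replicates 1 to 3. All Gln libraries lay above all NH4NO3 libraries, and the mean was 2.34-fold higher in Gln, 93.8 ± 2.42 against 40.2 ± 2.69 RPKM (SD, n = 3 each). The difference by limma on the log2 scale was 1.21 ± 0.07 (SE), with an adjusted p of 2.16e-06, and it lay between 1.12 and 1.23 over all alternatives run. ASB1 overlaps AT1G25211 on the other strand over 173 bases, and the libraries do not mark the strand. AT1G25211 was at 57.5 ± 1.53 RPKM in Gln and 50.2 ± 2.62 RPKM in NH4NO3. A long non-coding RNA on the other strand, AT1G05933, shares 695 bases with ASB1 and was not analysed here.

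The alpha subunit gene ASA1 (AT5G05730, chromosome 5, 1719533 to 1722933, minus strand) had 83.8, 69.8 and 82.3 RPKM in Gln, against 38.1, 34.8 and 37.8 RPKM in NH4NO3. The groups did not overlap, as for 53.6% of all genes tested, and Gln replicate 2 was the lowest of its group, as it was for ASB1. ASA1 averaged 78.6 ± 7.69 RPKM in Gln and 36.9 ± 1.84 RPKM in NH4NO3, 2.13-fold higher in Gln, or 1.07 ± 0.08 on the log2 scale (limma adjusted p = 1.22e-05). A log2 fold change of 1 or more with a call was reached by 3.13% of all genes tested, and ASB1 and ASA1 were both among them. ASB1 stood at rank 393 and ASA1 at rank 520 of 19284 when genes were ordered from the highest log2 fold change down. Per kilobase, the ratio of ASA1 to ASB1 was 0.880, 0.767 and 0.864 in Gln, against 0.915, 0.939 and 0.906 in NH4NO3. ASA1 shares 201 bases with AT5G05735 on the other strand, which was not analysed here. The ratio of the subunits was looked at after the values were seen and was not tested.

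The paralogs of both subunits were not higher in Gln. ASA2, a second alpha subunit gene, was at 8.93 ± 0.54 RPKM in Gln and 10.1 ± 0.76 RPKM in NH4NO3 and was not called (limma adjusted p = 0.15). AT5G57890, the nearly identical locus that RefSeq names a glutamine amidotransferase type 1 family protein, fell to 6.23 ± 0.94 RPKM in Gln, against 8.22 ± 0.39 RPKM in NH4NO3 (log2 fold change -0.36 ± 0.10, limma adjusted p = 0.021). Its adjusted p reached 0.082 over all alternatives, and the call was lost with no filter on low values and on leaving out NH4NO3 replicate 2, Gln replicate 1 or Gln replicate 2. The 4 loci near ASB1 were counted at 0 reads in every library. The deposited multi-read ratio, by its name a share of reads with more than 1 mapping place, was 0.0011 for ASB1 and 0.00305 for AT5G57890, 0 for AT1G24807 and 1 for AT1G24909, AT1G25083 and AT1G25155, so the 0 reads of these 3 loci do not show that they have no transcripts. With so few differing bases, the split of reads among the beta subunit loci is uncertain all the same. ASA1 made up 89.8% ± 0.57 of the summed ASA1 and ASA2 RPKM in Gln and 78.4% ± 1.99 in NH4NO3. ASB1 made up 93.8% ± 0.77 of the summed ASB1 and AT5G57890 RPKM in Gln and 83.0% ± 1.66 in NH4NO3. Each share differed without overlap between the groups (exact permutation test, 2-sided, p = 0.1, also after adjustment over 4 families, the smallest p that 3 against 3 libraries allow).

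Most genes after anthranilate synthase in the route to tryptophan also rose. Of 11 tested genes of tryptophan synthesis after anthranilate, 7 rose, 3 fell and 1 was not called, with a median log2 fold change of 0.50. The locus AT2G04400, a TIM barrel family protein in RefSeq, rose to 80.3 ± 3.26 RPKM in Gln, against 33.8 ± 1.46 RPKM in NH4NO3, a log2 fold change of 1.22, and overlaps the opposite gene AT2G04410 over 41 bases. TSA1, the alpha chain of tryptophan synthase, rose to 168 ± 8.57 RPKM in Gln, against 83.3 ± 3.41 RPKM in NH4NO3. PAT1, which adds phosphoribose to anthranilate, rose to 50.7 ± 4.83 RPKM in Gln, against 30.1 ± 0.96 RPKM in NH4NO3. TSB2 and TSB1, beta chains of tryptophan synthase, had log2 fold changes of 0.61 and 0.60. The members that fell were PAI1 (-0.34) and PAI3 (-0.35), isomerases of the pathway, and AT5G48220 (-0.26), all on the log2 scale. A further isomerase gene, PAI2, rose by 0.50 on the log2 scale, to 12.5 ± 0.61 RPKM in Gln, against 8.57 ± 1.02 RPKM in NH4NO3. PAI1 was at 5.78 ± 0.35 RPKM in Gln and 7.59 ± 0.60 RPKM in NH4NO3. The multi-read ratio was 0.31 for PAI1 and 0.34 for PAI2, so their opposite changes are uncertain. Leaving out NH4NO3 replicate 2, NH4NO3 replicate 3 or Gln replicate 2 ended the calls of PAI3 (limma adjusted p up to 0.117) and AT5G48220 (up to 0.105), and leaving out Gln replicate 1 also ended that of AT5G48220.

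In the shikimate pathway, which supplies chorismate, 5 of 13 genes rose, none fell and 8 were not called. Their median log2 fold change was 0.11. The shares over all genes tested were 41.2% called, 21.4% higher and 19.8% lower, and nothing particular to the pathway is read from its count. DHS1, an entry enzyme of the pathway, rose to 88.7 ± 3.16 RPKM in Gln, against 49.1 ± 3.56 RPKM in NH4NO3. AT1G22410, of the same enzyme family, rose by 0.82 on the log2 scale, whereas the family member DHS2 was at 62.0 ± 7.1 RPKM in Gln and 66.8 ± 2.7 RPKM in NH4NO3 and was not called. AT2G45300, an enolpyruvate transferase, and the chorismate synthase gene AT1G48850 rose by 0.67 and 0.41 on the log2 scale. CM1, a chorismate mutase, which draws chorismate toward phenylalanine and tyrosine, rose by 0.27 on the log2 scale, but was not called with NH4NO3 replicate 3 or Gln replicate 2 left out (limma adjusted p up to 0.060). Of 7 tested genes that make or control products of tryptophan, 6 rose and 1 fell, beside 21.4% higher and 19.8% lower over all genes tested. CYP83B1 and CYP79B2, enzymes of indole glucosinolate synthesis, had log2 fold changes of 1.24 and 1.03. PAD3, of camalexin synthesis, and MYB122 rose by 0.70 and 0.58 on the log2 scale, and MYB51, a regulator of indole glucosinolate genes, fell to 56.2 ± 10.2 RPKM in Gln, against 81.6 ± 3.37 RPKM in NH4NO3. PAD3 was not called with NH4NO3 replicate 1, NH4NO3 replicate 3 or Gln replicate 1 left out (limma adjusted p up to 0.0952), and MYB122 rests on 112 to 167 reads in Gln and 55 to 86 reads in NH4NO3.

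**Figure D2:**
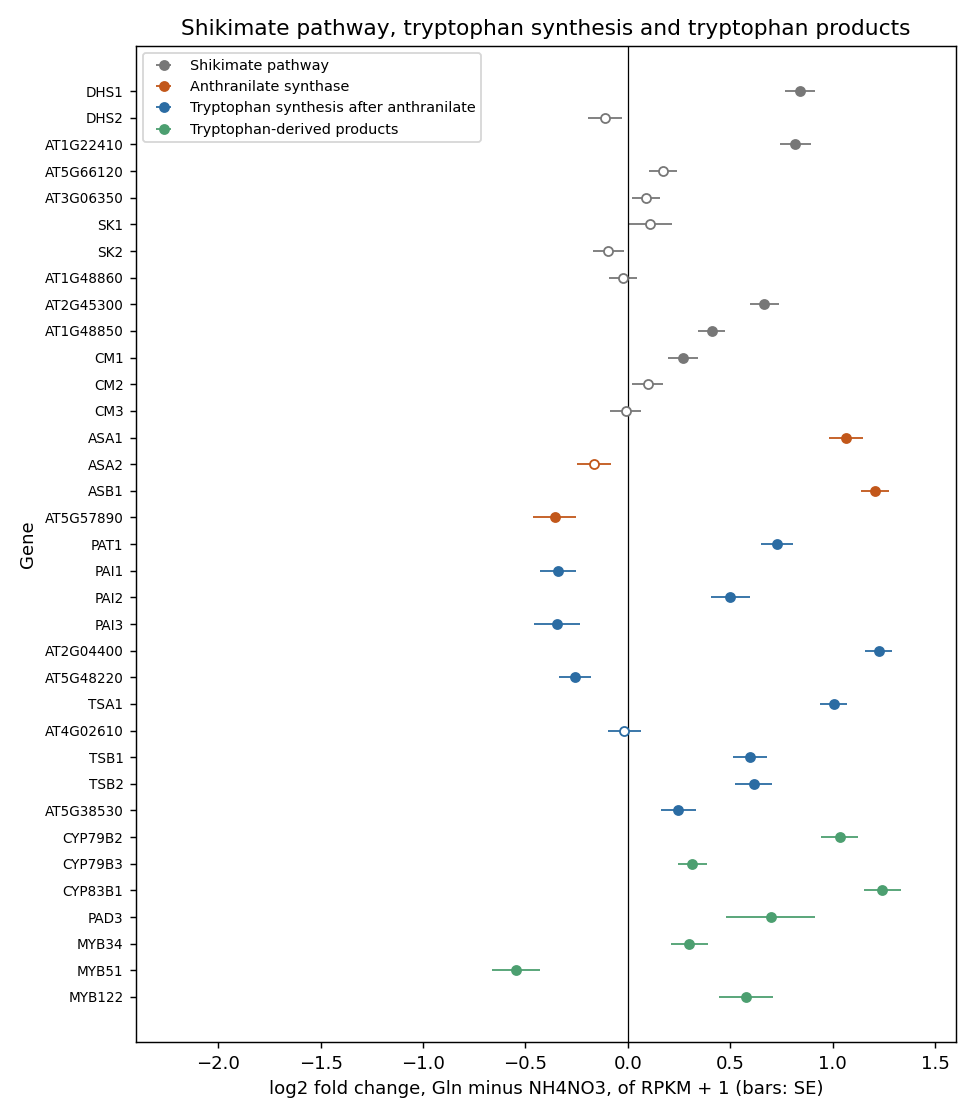
Log2 fold change of RPKM + 1, Gln minus NH4NO3, for genes of the shikimate pathway, anthranilate synthase, later tryptophan synthesis and products of tryptophan, with bars for the SE (n = 3 each). Filled points were called at a limma adjusted p under 0.05. ASA1, ASB1, AT2G04400 and TSA1 lie between 1.00 and 1.22, while AT5G57890 lies at -0.36.

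The 250 bases before the annotated starts of ASA1 and ASB1 are shown because both subunits rose, and those of ASE2 because it fell. They are from TAIR10.1 and read 5′ to 3′ toward the gene, with matches to the searched motifs in capitals. The motifs, on both strands, were the W box (TTGACC or TTGACT), bound by WRKY factors, the GCC box (GCCGCC), the telo box (AAACCCTA) and the site II element (TGGGCC or TGGGCT).
ASA1 (chr5:1722934-1723183, minus strand): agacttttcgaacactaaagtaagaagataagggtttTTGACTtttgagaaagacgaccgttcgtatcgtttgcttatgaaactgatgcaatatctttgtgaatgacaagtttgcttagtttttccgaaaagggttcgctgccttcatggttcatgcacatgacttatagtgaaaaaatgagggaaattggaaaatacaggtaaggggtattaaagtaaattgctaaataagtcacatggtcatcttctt
ASB1 (chr1:8839610-8839859, minus strand): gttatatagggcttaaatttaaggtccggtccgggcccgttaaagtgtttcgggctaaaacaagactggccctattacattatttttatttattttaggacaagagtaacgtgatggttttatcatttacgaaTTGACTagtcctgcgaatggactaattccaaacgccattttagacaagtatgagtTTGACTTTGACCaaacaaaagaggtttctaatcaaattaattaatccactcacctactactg
ASE2 (chr4:16576754-16577003, minus strand): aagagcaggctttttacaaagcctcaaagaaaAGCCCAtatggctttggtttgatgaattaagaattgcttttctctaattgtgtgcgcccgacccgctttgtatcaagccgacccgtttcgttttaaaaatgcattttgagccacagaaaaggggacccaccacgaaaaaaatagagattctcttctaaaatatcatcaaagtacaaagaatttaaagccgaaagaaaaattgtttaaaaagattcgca
ASA1 held 1 W box and ASB1 held 3, of which a pair are adjacent, while ASE2 held none and had 1 site II element. A W box was found in the same window of 4 of the 10 members and of 28.5% of 26711 promoters. The 4 were ASA1, ASB1, AT1G63660, which was called lower, and GFAT, which was not called. AT1G63660 and GFAT held 2 each, and AT1G30820, which was called higher, held none. A site II element was found in 4 members and 19.4% of promoters. The GCC box was in no member and in 1.85% of promoters, and the telo box in 1 member, AT1G63660, and in 4.44% of promoters. These counts describe the letters in these windows and say nothing on binding.

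The purine genes that use glutamine were lower in Gln, apart from ASE1. ASE2 (AT4G34740, chromosome 4, 16574544 to 16576753, minus strand) encodes an isoform of the enzyme that starts purine synthesis by placing glutamine nitrogen on phosphoribosyl pyrophosphate. It had 7.59, 6.35 and 6.09 RPKM in Gln, against 11.8, 10.9 and 11.0 RPKM in NH4NO3. The highest Gln library was below the lowest NH4NO3 library. ASE2 averaged 6.68 ± 0.80 RPKM in Gln and 11.2 ± 0.48 RPKM in NH4NO3, 1.68-fold lower in Gln, or -0.67 ± 0.09 on the log2 scale (limma adjusted p = 0.000401). It kept its call in all alternatives run, between -0.76 and -0.48 on the log2 scale. Of all genes tested, 97.0% had a log2 fold change above that of ASE2.

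ASE1 (AT2G16570), a paralog of ASE2, was low, with 1.39, 1.76 and 1.69 RPKM in Gln against 1.96, 1.18 and 1.23 RPKM in NH4NO3. The groups overlapped, and the values rest on 86 to 132 reads in Gln and 71 to 130 reads in NH4NO3. Its log2 fold change was 0.10 ± 0.15 (limma adjusted p = 0.61). A further paralog, ASE3, had 0 reads in 5 libraries and 2 in NH4NO3 replicate 3. ASE2 made up 84.4%, 78.2% and 78.2% of the summed ASE1, ASE2 and ASE3 RPKM in Gln, against 85.7%, 90.1% and 89.5% in NH4NO3 (exact permutation p = 0.1, 2-sided). The summed level of the family was 8.30 ± 0.62 RPKM in Gln and 12.7 ± 0.90 RPKM in NH4NO3.

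PUR4 (AT1G74260) encodes the enzyme of the next glutamine-using step of purine synthesis, which makes formylglycinamidine ribonucleotide. It had 8.27, 7.30 and 7.39 RPKM in Gln, against 10.1, 9.25 and 9.54 RPKM in NH4NO3. All Gln libraries lay below all NH4NO3 libraries, with a mean 1.26-fold lower in Gln, or -0.30 ± 0.08 on the log2 scale (limma adjusted p = 0.0163). The adjusted p reached 0.057 at most, and the call was lost without NH4NO3 replicate 1 and without Gln replicate 2.

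GMP synthase (AT1G63660) aminates xanthosine monophosphate to GMP at the end of the guanine branch. It had 12.5, 11.7 and 12.5 RPKM in Gln, against 15.0, 14.8 and 13.7 RPKM in NH4NO3. The groups did not overlap, and the mean was 1.19-fold lower in Gln, or -0.23 ± 0.07 on the log2 scale (limma adjusted p = 0.0310). Of the libraries left out in turn, NH4NO3 replicate 1, NH4NO3 replicate 2 and Gln replicate 2 each ended the call, with adjusted p-values up to 0.102.

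Most other enzymes of purine synthesis were not called, as was true of most genes tested, of which 41.2% were called. Of 16 tested, 2 fell, 1 rose and 13 were not called, with a median log2 fold change of -0.06. PUR7, which makes a late imidazole intermediate, fell to 6.26 ± 0.87 RPKM in Gln, against 8.63 ± 0.78 RPKM in NH4NO3. AT2G35040, the bifunctional enzyme that closes the purine ring, fell by 0.20 on the log2 scale. AT4G18440, an L-aspartase-like protein in RefSeq, rose to 12.8 ± 1.43 RPKM in Gln, against 9.59 ± 0.39 RPKM in NH4NO3. Without NH4NO3 replicate 2, neither PUR7 (limma adjusted p = 0.051) nor AT2G35040 was called. AT2G35040 also lost its call with any other library except Gln replicate 1 left out (up to 0.116). The summed level of the 16 genes was 252 to 253 RPKM in Gln and 256 to 270.4 RPKM in NH4NO3.

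CTP synthase aminates UTP to CTP with glutamine. The gene AT1G30820 had 32.9, 34.4 and 37.9 RPKM in Gln, against 26.3, 28.8 and 24.6 RPKM in NH4NO3. All Gln libraries were above all NH4NO3 libraries, the mean was 1.32-fold higher in Gln, and the log2 fold change was 0.39 ± 0.08 (limma adjusted p = 0.00422). The other CTP synthase gene of the set, AT2G34890, had 0 reads in every library and was not tested. A count of 0 allows up to 0.0456 to 0.0551 RPKM per library in Gln and 0.0514 to 0.0589 RPKM per library in NH4NO3, at 3 reads and for counting error only.

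Of the remaining CTP synthase genes with reads, 1 fell and the others were not called. AT3G12670 fell to 18.3 ± 0.10 RPKM in Gln, against 22.9 ± 1.36 RPKM in NH4NO3 (log2 fold change -0.31 ± 0.07, limma adjusted p = 0.0056). AT4G02120 was at 18.9 ± 1.6 RPKM in Gln and 22.0 ± 0.93 RPKM in NH4NO3 (adjusted p = 0.060 by limma, and 0.025 to 0.18 over all alternatives), and AT4G20320 was at 8.10 ± 0.77 RPKM in Gln and 8.74 ± 0.96 RPKM in NH4NO3, with overlapping groups (adjusted p = 0.46). AT1G30820 made up 42.4%, 41.9% and 46.6% of the summed RPKM of the 5 genes in Gln, against 31.5%, 36.3% and 31.6% in NH4NO3 (exact permutation p = 0.1, 2-sided). The summed level was 80.4 ± 2.37 RPKM in Gln and 80.2 ± 2.84 RPKM in NH4NO3. Thus the share of the family held by AT1G30820 was 10.5 percentage points higher in Gln at summed levels that differed by less than the spread between libraries.

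**Figure D3:**
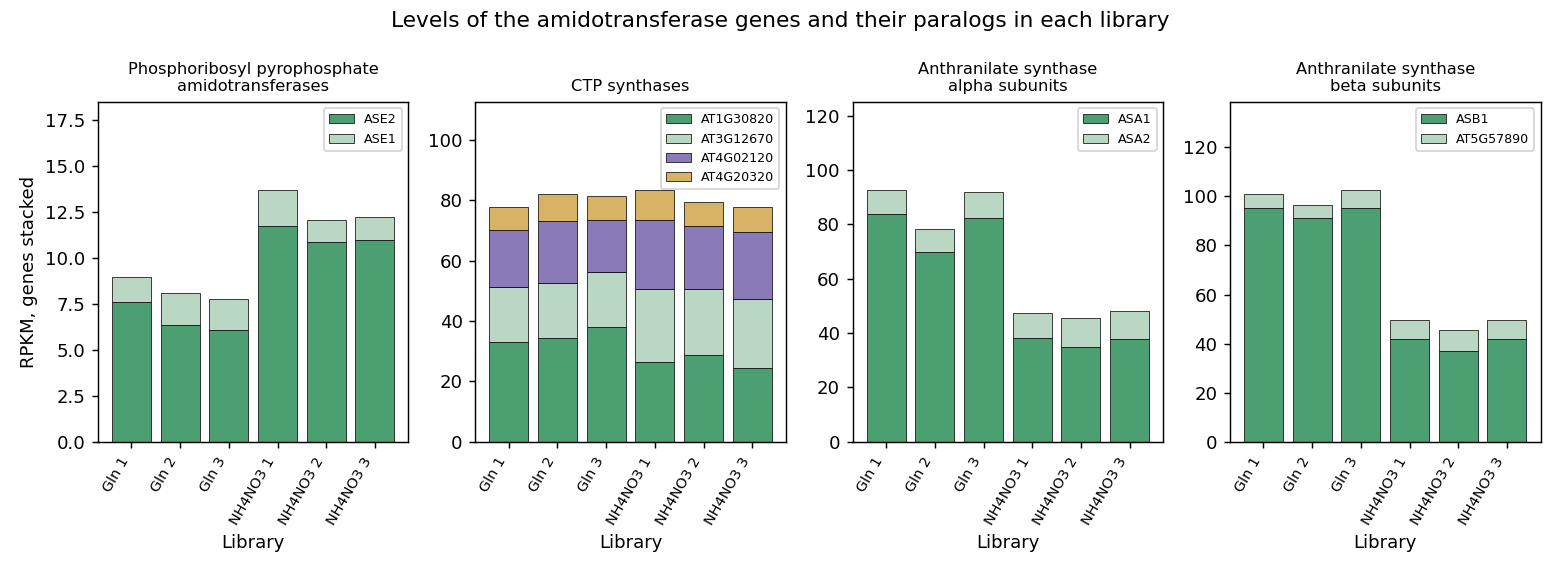
RPKM of the amidotransferase genes and their expressed paralogs in each library, stacked, with Gln libraries left of NH4NO3 libraries. The CTP synthase stacks reach 77.7 to 82.1 RPKM in Gln and 77.8 to 83.4 RPKM in NH4NO3, whereas both anthranilate synthase stacks are taller in Gln and the ASE stacks are shorter.

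Upstream of CTP, the pyrimidine list went both ways, with 2 of 7 genes higher, 2 lower and 3 not called. Its median log2 fold change was -0.12. Among all genes tested, 21.4% were higher and 19.8% lower. CARB, the large subunit of carbamoyl phosphate synthetase, fell to 20.3 ± 0.94 RPKM in Gln, against 25.3 ± 0.75 RPKM in NH4NO3. Its partner CARA, the subunit that hydrolyses glutamine, was at 30.9 ± 2.9 RPKM in Gln and 33.7 ± 1.2 RPKM in NH4NO3 and was not called. AT3G54470, UMP synthase, fell by 0.28 on the log2 scale, and PYR4, dihydroorotase, and PYR6, a UMP and CMP kinase, rose by 0.20 and 0.23. After quantile normalization, or with any NH4NO3 library or Gln replicate 3 left out, no member of the list was called higher (limma adjusted p up to 0.101 for PYR4 and 0.195 for PYR6). AT3G54470 lost its call with any library except Gln replicate 3 left out (up to 0.132).

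HISN4 (AT4G26900) takes glutamine nitrogen to form the imidazole ring of histidine. It had 15.1, 14.8 and 16.0 RPKM in Gln, against 18.0, 17.2 and 15.7 RPKM in NH4NO3. The groups overlapped, and the gene was not called (log2 fold change -0.14 ± 0.08, limma adjusted p = 0.17, and 0.077 to 0.39 over all alternatives). HISN4 overlaps AT4G26910 on the other strand over 57 bases, and AT4G26910 was at 53.6 ± 2.78 RPKM in Gln and 39.1 ± 1.47 RPKM in NH4NO3. Of 9 tested genes of the rest of the histidine pathway, 3 fell, none rose and 6 were not called. Their median log2 fold change was -0.16. Among all genes tested, 41.2% were called and 19.8% were lower, and nothing particular to the pathway is read from its count. HISN1A, ATP phosphoribosyl transferase, which starts the pathway, fell to 19.9 ± 0.83 RPKM in Gln, against 46.7 ± 1.21 RPKM in NH4NO3, a log2 fold change of -1.19 ± 0.06. Its paralog HISN1B was at 33.9 ± 0.81 RPKM in Gln and 39.3 ± 3.6 RPKM in NH4NO3 (limma adjusted p = 0.058). HISN7 and HISN5B fell by 0.41 and 0.28 on the log2 scale. With quantile normalization or median scaling 5 members of this list were lower, and without NH4NO3 replicate 1 or 2 the number was 1. HISN7 also lost its call without Gln replicate 3, and HISN5B with any library except Gln replicate 1 left out (limma adjusted p up to 0.076 and 0.108), whereas HISN1B was called without NH4NO3 replicate 3 (0.0308).

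GFAT (AT3G24090) makes glucosamine 6-phosphate, the entry to UDP-N-acetylglucosamine, which is used to glycosylate proteins. It had 2.65, 2.34 and 2.83 RPKM in Gln, against 2.34, 1.40 and 1.69 RPKM in NH4NO3. The lowest Gln library and the highest NH4NO3 library were nearly equal, and the gene was not called, at 0.37 ± 0.14 on the log2 scale (limma adjusted p = 0.0555). Reads numbered 163 to 195 in Gln and 89 to 154 in NH4NO3. The gene was called higher after quantile normalization, with voom weights and without NH4NO3 replicate 1, with adjusted p-values from 0.017 to 0.198 over all alternatives. Of the 4 later genes of that pathway, AT5G18070, a phosphoglucosamine mutase-like protein, rose to 5.36 ± 0.44 RPKM in Gln, against 3.78 ± 0.52 RPKM in NH4NO3, and 3 were not called.

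By level per kilobase, ASB1, ASA1, AT1G30820, HISN4 and AT1G63660 took the places 1 to 5 under both nitrogen sources. ASB1 and ASA1 were separate in Gln, where the lowest ASB1 value was 91.0 and the highest ASA1 value 83.8 RPKM, but overlapped in NH4NO3. PUR4 and ASE2 followed in Gln and overlapped, whereas in NH4NO3 ASE2 was above PUR4 without overlap. GFAT and ASE1 came next and overlapped in NH4NO3 but not in Gln. The summed level of the 10 members was 239 to 262 RPKM in Gln and 155 to 165 RPKM in NH4NO3. Most of the Gln sum came from ASB1 and ASA1, at means of 93.8 and 78.6 RPKM, against 40.2 and 36.9 RPKM in NH4NO3. With 3 members called higher and 3 lower, the sum does not describe the members as a set.

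Beside these members and their paralogs, 14 genes of other glutamine-using enzymes, partner subunits included, were examined, CARA and CARB among them. Of these, 6 fell, none rose and 8 were not called, with a median log2 fold change of -0.16. Over all genes tested, 41.2% were called, 19.8% lower. ASN2, an asparagine synthetase, GLU1 and GLT1, glutamate synthases, and GATB, of the enzyme that amidates glutamyl-tRNA in organelles, had log2 fold changes of -2.85, -1.14, -0.59 and -0.39. Their paralogs did not follow. The glutamate synthase gene GLU2 was at 0.24 on the log2 scale (limma adjusted p = 0.053). ASN1, at 266 ± 43.2 RPKM in Gln and 228 ± 58.9 RPKM in NH4NO3, and ASN3 were at 0.24 and -0.11. None of these 3 was called. PDX2, the glutaminase of vitamin B6 synthesis, was at 53.6 ± 0.88 RPKM in Gln and 51.4 ± 2.0 RPKM in NH4NO3. With the filter at a mean of 5 RPKM, voom weights or a replicate block, 1 gene of this list was called higher. The same number was called higher without NH4NO3 replicate 1, NH4NO3 replicate 2 or Gln replicate 2. In the main fit, GLU2 had the lowest adjusted p of the genes of this list with a positive log2 fold change.

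**Figure D4:**
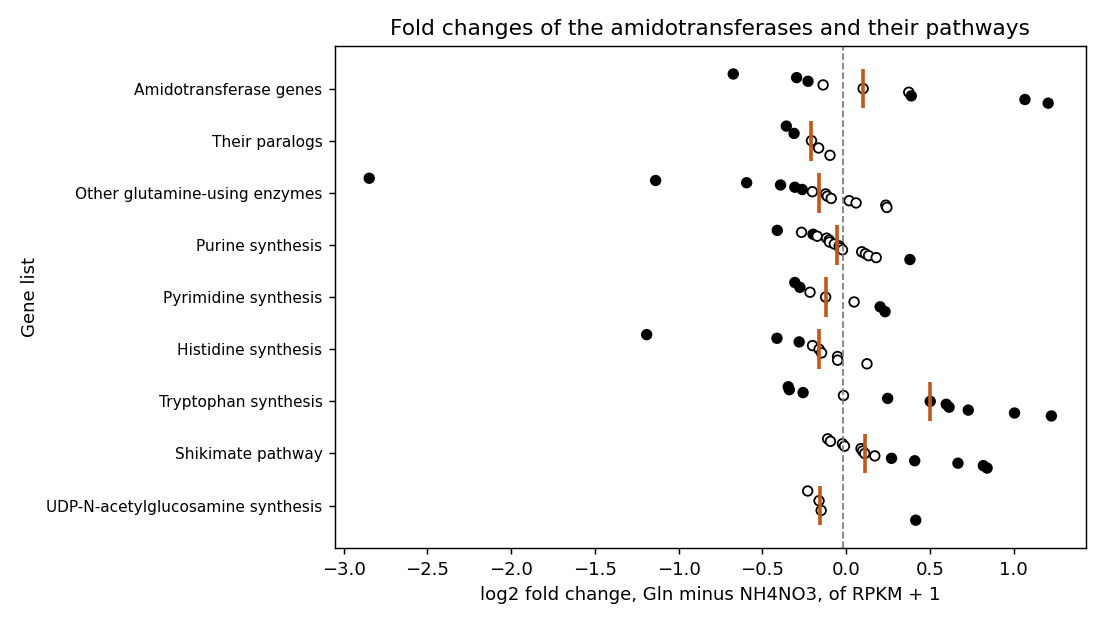
Log2 fold change of RPKM + 1, Gln minus NH4NO3, of each tested gene (points, filled where called at a limma adjusted p under 0.05) in the amidotransferase set and the pathway lists. Orange bars are list medians and the dashed line is the median of all genes tested, -0.02. The tryptophan synthesis median is at 0.50 and those of purine, pyrimidine and histidine synthesis lie between -0.16 and -0.06.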

How the data were processed

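Per the labels' protocols, the 6 libraries were prepared from total RNA with the TruSeq RNA kit of Illumina, which does not mark the strand. The authors deposited 1 RPKM value per gene and library, TMM-normalized per the name of the file. The submitters' processing notes name TAIR10 and SAMtools. The aligner, the counter and the gene annotation are not given in these sources. The deposited multi-read ratio is a fraction from 0 to 1, not defined in the file headers, and the deposited gene length is in kilobases. Multiplied by gene length and divided by a library constant, each value was a read number plus 0.5, which gave the implied reads. Among values up to 20 reads, 98.1% to 98.8% lay within 0.05 of a whole number. A listed value is therefore above 0 also where no read was counted.

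Genes averaging 1 RPKM or more over the 6 libraries entered a limma fit (version 3.58.1, R 4.3.3) of log2(RPKM + 1) with a mean-variance trend, 2-sided, with Benjamini-Hochberg adjustment over all genes tested and a call below 0.05. Differences are given as Gln minus NH4NO3 on that scale, which understates the change of low genes. On simulated data the test made more false calls than its nominal rate among genes with few reads. The accuracy limit set for this check was missed over all genes and was then applied only to genes with at least 100 reads, where it was met. Calls at low read numbers are therefore less certain, and ASE1, GFAT, MYB122 and the markers SPCH and COBL9 had under 100 reads in 1 or more libraries. Each called amidotransferase gene had at least 433 reads in every library. Members and lists were chosen with earlier results of these data known. Named genes were all members and paralogs, and for each list up to 4 called genes with the largest change and any that moved against the majority. DHS2, CM1, HISN1B, CARA, PDX2, ASN1, ASN3, GLU2, TSB1, PAI2, AT5G38530 and RBCS1A, and genes that overlap a named gene, were added after their values were seen. Of the gene identifiers, 32835 matched RefSeq TAIR10.1, and names and positions are from it. Deposited lengths equalled a RefSeq transcript length for 34.3% of genes, so the authors' gene models may differ. Sequences were read with Biopython 1.88. Intervals and limits cover counting error only.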

Additional observations from a re-analysis of the deposited data

How the results depend on the processing

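ASB1, ASA1, AT1G30820 and ASE2 kept their direction and call under every alternative run: pseudocounts of 0.1 and 5, no filter, a filter at a mean of 5 RPKM, quantile normalization, median scaling, voom weights on implied reads, a replicate block, and leaving out each library. Among members, paralogs and named list genes, PDX2 (-0.025, not called) and RBCS1A (0.21, called) changed sign after quantile normalization, and no other reversed. ASN1, ASN3, GLU2 and AT5G38530 were not part of this check. Replicate numbers did not pair the samples (correlations of same-numbered deviations of -0.07, -0.10 and -0.01). With the replicate block, AT1G63660 was not called (-0.23 on the log2 scale), purine and pyrimidine lower calls and pyrimidine higher calls numbered 1 each, and 1 other glutamine-using gene was higher. GFAT was called after quantile normalization (0.38) and with voom (0.55). With no filter, lower calls numbered 1 for paralogs, purine, pyrimidine and tryptophan synthesis and 0 for tryptophan products. Higher calls then numbered 1 for pyrimidine and 0 for UDP-N-acetylglucosamine synthesis. The latter also had 0 with the filter at 5, where its only called gene, AT5G18070, averaging 4.57 RPKM, was not tested. Other glutamine-using genes had 1 higher call with the filter at 5 and with voom. Quantile normalization gave 5 lower histidine genes, 0 higher pyrimidine genes and 1 higher shoot marker, RBCS1A. Median scaling gave 5 and 1 for the first pair, and voom gave 1 lower root marker. By implied reads, the share of ASB1 was 8.41 points higher in Gln. When each library was left out, lower calls ranged from 1 to 3 for the amidotransferase, histidine and tryptophan sets, from 1 to 2 for paralogs and pyrimidine, from 0 to 2 for purine, and from 0 to 1 for UDP-N-acetylglucosamine and root markers. Higher calls ranged from 0 to 2 for pyrimidine and from 0 to 1 for other glutamine-using genes. PUR4 ranged from -0.35 to -0.27, AT1G63660 from -0.26 to -0.20 and GFAT from 0.27 to 0.50. The cause of these changes was not tested. ASE1 and GFAT rest on 71 to 195 reads per library.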

Other observations

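Among 13980 genes averaging 5 RPKM or more, AT5G05600, APX1 and GRF7 had log2 values that followed ASB1 most closely over the 6 libraries (Pearson r of 0.9995, 0.9995 and 0.9992). Their log2 fold changes, Gln minus NH4NO3, were 1.90, 0.68 and 0.30, and APX1 encodes a cytosolic ascorbate peroxidase. The libraries form 2 groups, so a gene that differs between the groups has a high r, and 300 genes exceeded 0.99.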
